A study of Mus musculus with 6 samples.

Results

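The genes described here are 10 that handle stored lipid and fatty acids in macrophages, Plin2, Plin3, Pnpla2, Hilpda, Dgat1, Dgat2, Lpl, Fabp4, Fabp5 and Pparg. They were given as a list of mouse symbols, and each symbol matched 1 of the 49315 rows of the count table. The RNA came from RAW264.7, a mouse line with macrophage properties, labelled wild type throughout. A first group of 3 libraries received 4 μg/mL SKI-II, a small molecule sold as an inhibitor of sphingosine kinases, and a second group of 3 received the same volume of its solvent, DMSO, both for 24 h. The groups therefore shared the cell line, the genotype and the solvent, and differed by the compound. Cells were treated and RNA extracted as for quantitative PCR, for which the methods state biological replicates. The labels do not say whether these libraries came from separate cultures, so p-values measure the spread between these libraries.

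A lipid droplet is a store of triglyceride and cholesteryl ester inside a single layer of phospholipid, coated with perilipins. Fatty acids reach a macrophage partly through lipoprotein lipase, which cuts them from circulating triglyceride, are carried in the cytosol by fatty acid binding proteins, and are built into triglyceride by acyltransferases that finish with diacylglycerol acyltransferase. Droplets are emptied by adipose triglyceride lipase, and macrophages loaded with droplets are known as foam cells.

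Libraries held 12495957 to 20050677 counts, and 16890 to 18196 genes had at least 1 count. All values below are normalized counts unless another scale is named, that is, counts divided by the library size after scaling by the trimmed mean of M values (TMM) and multiplied by the mean scaled size. All 8 macrophage markers (Ptprc, Itgam, Csf1r, Adgre1, Cd68, Lyz2, Cd14 and Fcgr1) were expressed, with a summed level of 137674 to 202771 in DMSO and 87293 to 125093 in SKI-II. Of these, Cd14 and Fcgr1 rose, Itgam, Adgre1 and Lyz2 fell, and Ptprc, Csf1r and Cd68 did not pass the test of edgeR. Their part in the results on the 10 genes was not tested. None of the 8 adipocyte markers passed the filter on low counts. Their summed level was 10.1 to 10.9 in DMSO and 8.59 to 24.4 in SKI-II, and Adipoq, Lep, Adrb3 and Aqp7 had no count in any library, while Cfd, Retn, Plin1 and Cidec made up the sum. The 6 fibroblast or epithelial markers (Col1a1, Col3a1, Pdgfra, Epcam, Krt8 and Krt18) summed to at most 17.9 in any library. Within the SKI-II group, replicate 1 held the highest value of 9 of the 10 genes, against 35.1% of all tested genes.

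Of the 9 genes with enough counts to test, 7 differed between the groups. Plin2, Hilpda and Plin3 were higher with SKI-II, and Fabp4, Fabp5, Dgat2 and Lpl were lower. Pnpla2 and Dgat1 did not pass the test, and Pparg was too low to test. The 7 calls were made by the quasi-likelihood test of edgeR at a Benjamini-Hochberg adjusted p below 0.05, which called 38.0% of the 12274 genes tested, 18.4% as higher and 19.7% as lower. Beyond 2-fold as well, the calls were 1 higher (Plin2) and 4 lower (Fabp4, Fabp5, Dgat2 and Lpl), where 8.28% and 7.44% of all tested genes were called. The values of the 2 groups did not overlap for 8 of the 9 genes, a pattern shown by 50.3% of all tested genes. The median log2 fold change was 0.10 over the 9 genes and 0.0038 over all tested genes. In bulk RNA, a lower value from fewer cells of a kind and from less RNA per cell cannot be told apart.

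**Figure D1:**
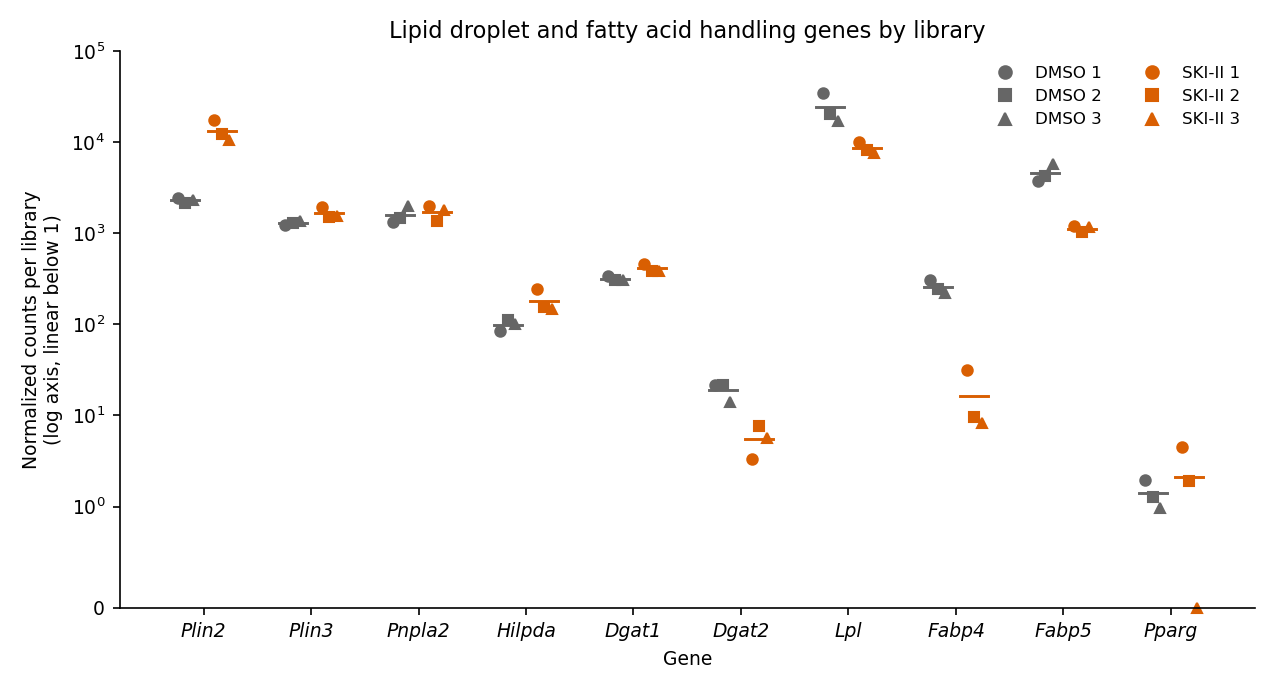
Normalized counts of each of the 10 genes (x axis) in each library (y axis, logarithmic above 1 and linear below), with DMSO in grey, SKI-II in orange, 1 symbol per replicate number and a horizontal line at the mean of 3 libraries. Plin2 lies higher in all SKI-II libraries, Fabp4, Fabp5, Dgat2 and Lpl lie lower in all of them, Pnpla2 overlaps, and Pparg rests on 0 to 4 counts per library.

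The largest increase among the 10 genes was that of a droplet coat protein. Plin2 (GRCm38 chr4:86648386-86670060, minus strand) encodes perilipin 2, the coat protein found on droplets of most cells outside fat tissue. Its level was 2410, 2135 and 2325 in DMSO replicates 1 to 3 and 17480, 12127 and 10381 in the SKI-II replicates. Every SKI-II library was above every DMSO library, and SKI-II replicate 1 was the highest. The means were 2290 ± 141 and 13329 ± 3699 (SD, n = 3), a log2 fold change of 2.54 (SE 0.19, edgeR adjusted p = 1.8e-05) or 5.82-fold. With each library left out in turn, the log2 fold change stayed between 2.29 and 2.69. A copy of 259 bp with 96.1% identity, Gm12551, held 14 counts in all, against 47591 for Plin2.

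Plin3 (GRCm38 chr17:56277476-56292873, minus strand) encodes perilipin 3, which moves between the cytosol and young droplets. It had 1214, 1301 and 1341 normalized counts in DMSO and 1949, 1514 and 1553 with SKI-II. The groups did not overlap, but SKI-II replicates 2 and 3 lay close to the DMSO libraries. The log2 fold change was 0.38 (SE 0.13, edgeR adjusted p = 0.0461), or 1.30-fold. Short stretches of Plin3 transcripts, of 110 to 135 bp, matched transcripts of 31 other genes at 95% identity or more. Among these was Dennd4a, with 13207 counts in all over its whole length, against 8869 for Plin3. Some reads of Plin3 could therefore be of uncertain origin, which was not tested. The call was lost when any library other than SKI-II replicate 3 was left out, with log2 fold changes of 0.25 to 0.45 over all 6 libraries left out, and with limma-voom or without the filter on low counts. Counts per kilobase of the principal transcript, the scale of all ratios here, allowed the 2 coats to be compared within each library: Plin2 stood 3.83, 3.17 and 3.35 times above Plin3 in DMSO and 17.3, 15.5 and 12.9 times above it in SKI-II. The mean log2 ratio went from 1.78 ± 0.14 to 3.92 ± 0.21 (SD, n = 3), a difference of 2.14 or 4.40-fold (exact two-sided permutation test, p = 0.1, the smallest that 3 against 3 libraries allow). With the length of all exons the ratios were 2.14, 1.77 and 1.87 in DMSO against 9.67, 8.63 and 7.21 with SKI-II, and the difference between groups does not depend on the length.

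The promoter windows of Plin2 and Plin3, and that of Hilpda, which also rose, are shown because these 3 genes moved in the same direction by different amounts. Sequences are from RefSeq on GRCm38.p6 and run 5′ to 3′ on the gene's strand, from 250 bases before to 50 after the start. Capitals mark ACGTG, the core of the element bound by hypoxia-inducible factors, AGGTCA, a half-site of nuclear receptors, and TGANTCA, the element bound by AP-1, searched on both strands. Windows were found for 5 of the 10 genes, Plin2, Plin3, Hilpda, Pparg and Pnpla2. Hilpda had 2 overlapping windows at different starts, of which the downstream one is printed.
Plin2 (chr4:86670010-86670309, minus strand): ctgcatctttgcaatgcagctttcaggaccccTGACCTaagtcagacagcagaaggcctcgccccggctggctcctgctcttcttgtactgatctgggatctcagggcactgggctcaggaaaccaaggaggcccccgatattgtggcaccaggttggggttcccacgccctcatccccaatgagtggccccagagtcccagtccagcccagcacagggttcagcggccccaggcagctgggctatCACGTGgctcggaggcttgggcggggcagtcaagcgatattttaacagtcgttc
Hilpda (chr6:29272376-29272675, plus strand): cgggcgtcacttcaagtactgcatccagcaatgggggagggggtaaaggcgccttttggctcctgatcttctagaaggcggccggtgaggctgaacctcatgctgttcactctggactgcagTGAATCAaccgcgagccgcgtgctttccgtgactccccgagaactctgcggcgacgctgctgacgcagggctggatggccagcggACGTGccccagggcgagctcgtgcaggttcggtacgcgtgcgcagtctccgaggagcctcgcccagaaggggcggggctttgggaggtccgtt
Plin3 (chr17:56290462-56290761, minus strand): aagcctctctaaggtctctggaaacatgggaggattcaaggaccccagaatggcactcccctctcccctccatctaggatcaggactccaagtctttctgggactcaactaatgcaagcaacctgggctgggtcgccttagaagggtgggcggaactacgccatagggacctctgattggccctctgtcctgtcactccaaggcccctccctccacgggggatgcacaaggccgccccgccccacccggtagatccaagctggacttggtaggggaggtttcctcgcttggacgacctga
The Plin2 window held ACGTG on both strands as 2 overlapping matches at positions -4 and -3 from the start, and AGGTCA on the other strand, read here as TGACCT, at -218. The printed Hilpda window held ACGTG at -43 and TGANTCA at -128, the latter with A at N. The other Hilpda window (chr6:29272238-29272537), at the start of the annotated gene, held the same TGANTCA match, there at 10, but no ACGTG and no AGGTCA. The Plin3 and Pnpla2 windows held none of the 3, and 2 of the 3 Pparg windows held AGGTCA, at -28 and -9. The Plin3 window lies at a start inside the annotated gene, whose 5′ end is at chr17:56292873. The sequence at that annotated end was not searched. Of all 32851 windows of the same length, 19.6% held ACGTG, 16.3% AGGTCA and 7.81% TGANTCA. Such matches describe the letters and are not evidence that a factor binds there.

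Of the lipolysis genes, the inhibitor rose and the lipase did not pass the test. Hilpda (GRCm38 chr6:29272488-29275446) encodes a small droplet protein that inhibits adipose triglyceride lipase and was named for its induction by low oxygen. Its normalized counts were 84.5, 112 and 100.01 in DMSO and 243, 153 and 146 with SKI-II. All SKI-II libraries were above the DMSO libraries, with replicate 1 well above the other 2. The means of 99.0 ± 14.0 and 180 ± 54.1 (SD, n = 3) gave a log2 fold change of 0.86 (SE 0.25, edgeR adjusted p = 0.0219), or 1.82-fold. Without DMSO replicate 1 it was 0.74 (adjusted p = 0.0587) and without SKI-II replicate 1 it was 0.59 (adjusted p = 0.092, both edgeR), and the call was lost.

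Pnpla2 (GRCm38 chr7:141455198-141460743) encodes adipose triglyceride lipase, which takes the first fatty acid off stored triglyceride. It had 1333, 1478 and 1957 normalized counts in DMSO and 1961, 1362 and 1797 with SKI-II, so the groups overlapped over most of their range. The log2 fold change was 0.10 (SE 0.18, edgeR adjusted p = 0.688), and its sign turned in the fit without DMSO replicate 1 (-0.02) and in that without SKI-II replicate 1 (-0.01). Per kilobase, Hilpda was 0.116, 0.139 and 0.0936 of Pnpla2 in DMSO and 0.227, 0.205 and 0.149 of it in SKI-II. The ratio was higher in every SKI-II library, by 0.73 on the log2 scale or 1.66-fold (exact two-sided permutation test, p = 0.1, n = 3 per group).

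The acyltransferases that complete triglyceride synthesis are products of unrelated genes, of which Dgat2 was lower with SKI-II and Dgat1 was not called. Dgat1 (GRCm38 chr15:76502015-76511953), the diacylglycerol acyltransferase of the endoplasmic reticulum, had 334, 302 and 306 normalized counts in DMSO and 462, 379 and 385 with SKI-II. The groups did not overlap, yet the log2 fold change of 0.38 (SE 0.15) did not pass edgeR's test (adjusted p = 0.0711). Dgat2 (GRCm38 chr7:99153658-99182719), the enzyme also found at droplet surfaces, was close to the limit of detection, with 22, 17 and 14 raw counts in DMSO and 3, 8 and 7 with SKI-II. After normalization these were 18.9 ± 4.37 and 5.56 ± 2.14 (SD, n = 3), again without overlap. The log2 fold change was -1.72 (SE 0.47, edgeR adjusted p = 0.0141), or 3.29-fold lower. The call was lost without DMSO replicate 2 (-1.63) or SKI-II replicate 1 (-1.50), and at 3 to 8 counts per SKI-II library the size of the change was poorly fixed. Dgat1 stood 18.7, 16.8 and 26.4 times above Dgat2 per kilobase in DMSO and 165, 59.5 and 81.0 times above it in SKI-II, a mean difference of 2.19 on the log2 scale (exact two-sided permutation test, p = 0.1, n = 3 per group).

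Lpl, which releases fatty acids, and Fabp4 and Fabp5, which bind them in the cytosol, all fell. Lpl (GRCm38 chr8:68880491-68907448) encodes lipoprotein lipase, which macrophages secrete. Its normalized counts were 34677, 20120 and 17049 in DMSO and 9961, 8206 and 7563 with SKI-II. DMSO replicate 1 stood far above the other DMSO libraries, and the lowest DMSO library was still above the highest SKI-II library. The means were 23949 ± 9417 and 8577 ± 1241 (SD, n = 3), and the log2 fold change was -1.48 (SE 0.25, edgeR adjusted p = 0.00156), or 2.79-fold lower. Without DMSO replicate 1 it was -1.13, and the gene was still called.

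Fabp4 (GRCm38 chr3:10204088-10208576) encodes the fatty acid binding protein shared by adipocytes and macrophages. It showed the largest change of the 10 genes, from 311, 192 and 223 raw counts in DMSO to 28, 10 and 10 in SKI-II. In normalized counts these were 302, 243 and 221 against 31.3, 9.54 and 8.15. All SKI-II libraries were far below the DMSO libraries, and SKI-II replicate 1 was well above the other 2 SKI-II libraries. The log2 fold change was -4.02 (SE 0.42, edgeR adjusted p = 9.57e-05), or 16.2-fold lower. It was -4.84 without SKI-II replicate 1 and -3.67 without SKI-II replicate 3. Of the adipocyte markers, Cfd had 9, 6 and 8 raw counts in DMSO and 11, 8 and 20 with SKI-II, and the other 7 had at most 7 in any library.

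Fabp5 (GRCm38 chr3:10012548-10016607) encodes a close relative of Fabp4 found in skin and macrophages. It had 3699, 4262 and 5721 normalized counts in DMSO and 1188, 1022 and 1153 with SKI-II. The SKI-II libraries were close together, and all were below the lowest DMSO library. The log2 fold change was -2.02 (SE 0.16, edgeR adjusted p = 2.63e-05), or 4.07-fold lower, and lay between -2.17 and -1.83 with any library left out. Reads of Fabp5 can be split with near-identical copies elsewhere in the genome. The copy Gm6166, 98.3% identical over 409 bp, took 20.96% of the counts summed over Fabp5 and 3 such copies, and fell by 1.93 on the log2 scale (edgeR adjusted p = 2.42e-05). The log2 ratio of group means of the sum was -2.01.

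Within each library, Fabp4 was 0.0900, 0.0627 and 0.0425 of Fabp5 per kilobase in DMSO and 0.0290, 0.0103 and 0.00778 of it in SKI-II. The log2 ratio fell by 2.23, or 4.69-fold (exact two-sided permutation test, p = 0.1, n = 3 per group), and no SKI-II library reached the lowest DMSO ratio.

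**Figure D2:**
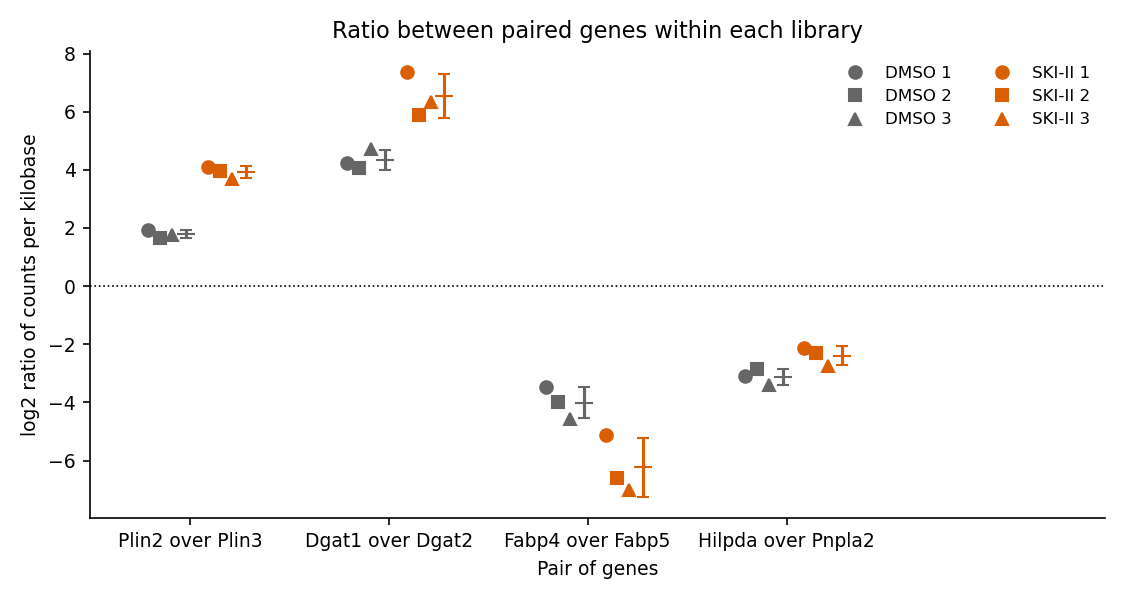
log2 ratio of counts per kilobase between 4 pairs of genes (y axis) within each library, with DMSO in grey, SKI-II in orange, 1 symbol per replicate number, and mean ± SD of 3 libraries beside the points. The Plin2 to Plin3, Dgat1 to Dgat2 and Hilpda to Pnpla2 ratios are higher and the Fabp4 to Fabp5 ratio lower in every SKI-II library, with differences of 2.14, 2.19, 0.73 and -2.23.

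Pparg (GRCm38 chr6:115360951-115490399) encodes the nuclear receptor that is activated by fatty acid derivatives and drives many lipid genes in adipocytes and foam cells. It had 2, 1 and 1 raw counts in DMSO and 4, 2 and 0 with SKI-II. A count of 0 in SKI-II replicate 3 allows up to 3 counts, or 0.150 CPM (the usual scaling of a count to a fixed library total), with counting error alone considered. At 0 to 4 counts per library no difference was detectable, and no fold change is given. Of 4 other known targets of PPAR receptors that were tested, 1 was called, against 38.0% of all tested genes. It was Cd36, the fatty acid translocase, which is also in the list of uptake and activation below. Its normalized counts of 5936, 4287 and 5139 in DMSO and 7076, 7209 and 6757 with SKI-II gave a log2 fold change of 0.45 (SE 0.14, edgeR adjusted p = 0.0299). The call on Cd36 was lost without DMSO replicate 2 or 3 or SKI-II replicate 1 or 2. Pdk4, another target, had no count in any library.

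**Figure D3:**
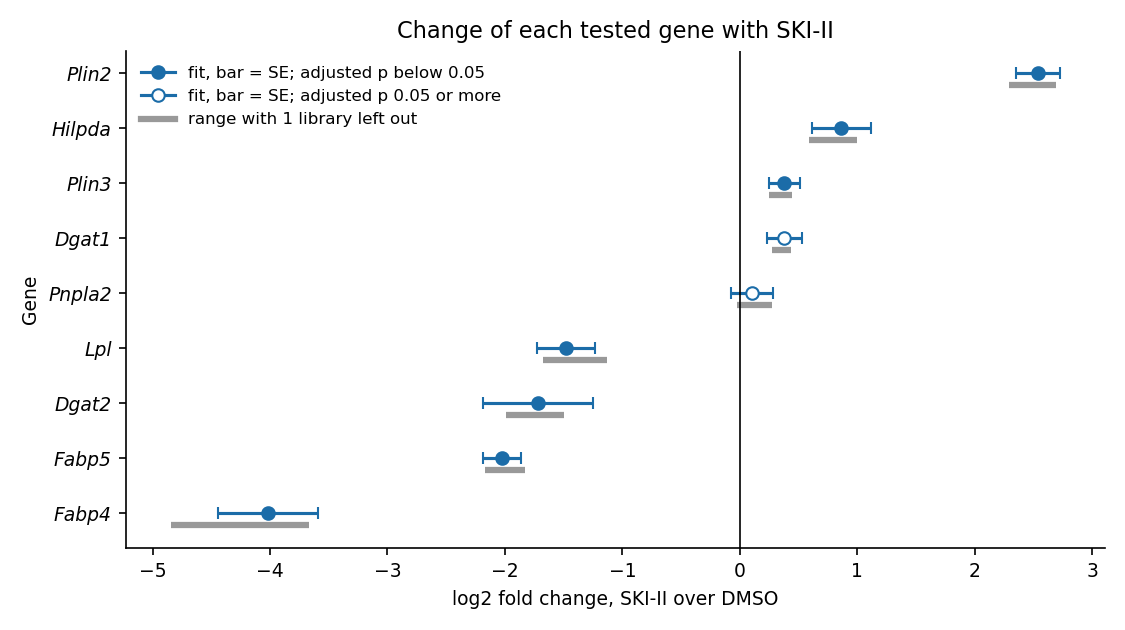
log2 fold change of SKI-II over DMSO (x axis) for the 9 tested genes, with bars of 1 SE, filled points at an edgeR adjusted p below 0.05 and grey bars for the range with 1 library left out. Plin2 lies at 2.54 and Fabp4 at -4.02, and only the grey bar of Pnpla2 crosses 0.

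The order of levels changed with treatment. On a scale of CPM per kilobase of the principal transcript, the DMSO means descended from Lpl (363) through Fabp5 (288), Plin2 (75.6), Pnpla2 (55.1), Plin3 (21.98), Fabp4 (17.8), Dgat1 (10.4), Hilpda (6.28) and Dgat2 (0.521) to Pparg (0.0493). Between neighbours, the ranges of Lpl and Fabp5 and of Plin3 and Fabp4 overlapped. In SKI-II, Plin2 came first (440), followed by Lpl (130), Fabp5 (70.8), Pnpla2 (59.1), Plin3 (28.6), Dgat1 (13.5), Hilpda (11.5), Fabp4 (1.14), Dgat2 (0.153) and Pparg (0.0751). Here the ranges of Fabp5 and Pnpla2, of Dgat1 and Hilpda, and of Dgat2 and Pparg overlapped. Plin2 thus moved from the third place to the first and Fabp4 from the sixth to the eighth. With the length of all exons of a gene in place of the principal transcript, the order changed: Fabp4 was already eighth in DMSO, where the ranges of Plin2 and Pnpla2 and of Dgat1 and Hilpda overlapped, and with SKI-II Pnpla2 and Plin3 stood above Fabp5, and Hilpda above Dgat1 with overlapping ranges. The places of Plin2 did not depend on the length.

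The wider pathway was described by 5 lists with 72 other genes. Of these, 49 were tested, 16 were higher and 8 lower, where 18.4% and 19.7% of all tested genes were called. In both directions together, 49.0% were called against 38.0% of all tested genes, with a median log2 fold change of 0.15. Beyond 2-fold, 6 were higher and 4 lower, where 8.28% and 7.44% of all tested genes were called. The number called higher fell to 8 without DMSO replicate 2, 9 without SKI-II replicate 1 and 10 without SKI-II replicate 2. In the same fits the genes called higher over all those tested went from 2255 to 1507, 1729 and 1724.

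Of 15 genes of droplet coat and formation, 7 were tested and 8 were not, 5 were called higher and 1 lower, none by more than 2-fold, where 18.4% and 19.7% of all tested genes were called. The median log2 fold change was 0.49. Rab18, a small GTPase on droplets, went from 1400 ± 148 to 2383 ± 239 normalized counts (SD, n = 3), a log2 fold change of 0.77 (edgeR adjusted p = 0.00142). Bscl2, which encodes seipin at the sites where droplets bud, rose by 0.60 (edgeR adjusted p = 0.00345). Aup1, a droplet protein that also serves protein degradation at the endoplasmic reticulum, rose by 0.49 (edgeR adjusted p = 0.00777). Fitm2, which helps droplets to bud, rose by 0.51 (edgeR adjusted p = 0.0344), and Pcyt1a, the enzyme that sets phosphatidylcholine supply, fell by 0.38 (edgeR adjusted p = 0.0411). The calls on Fitm2 and Pcyt1a were lost in 7 and 5 of the 13 alternatives. Plin5, Cidea and Hsd17b13, coat or droplet genes of oxidative, brown fat and liver tissue, had no count in any library.

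Of the 4 tested genes of the lipolysis list, edgeR called 0, where it called 38.0% of all tested genes, and 1 had an unadjusted p below 0.05. DESeq2 and limma-voom also called 0, while Lipa and Abhd6 were called without DMSO replicate 3. The median log2 fold change was 0.27. Lipe, the hormone-sensitive lipase, gave 0.16, Abhd5, the activator of adipose triglyceride lipase, -0.15, Lipa, the lysosomal acid lipase, 0.39, and Abhd6, a monoacylglycerol lipase, 0.42. Mgll and Pnpla3 had no count.

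In glycerolipid synthesis, 12 of 14 genes were tested, 5 rose and 2 fell, with a median of 0.22, beside shares of 18.4% higher and 19.7% lower over all tested genes. Gpat3, a glycerol-3-phosphate acyltransferase that starts the route to triglyceride, had 66.0, 55.6 and 77.2 normalized counts in DMSO and 952, 581 and 507 with SKI-II. The groups were far apart, and the change exceeded that of Plin2, with a log2 fold change of 3.35 (SE 0.26, edgeR adjusted p = 2.1e-05) or 10.2-fold. Genes of the lipins, the phosphatidate phosphatases of the next to last step, moved in both directions. Lpin1 had 647, 1017 and 1369 normalized counts in DMSO and 309, 124 and 407 with SKI-II and fell by 1.85 on the log2 scale (edgeR adjusted p = 0.00454). Lpin3 went from 93.5 ± 29.7 to 245 ± 60.5 (SD, n = 3) and rose by 1.39 (edgeR adjusted p = 0.00352). The acyltransferases of the second step also moved in both directions. Agpat5 fell by 0.51 (edgeR adjusted p = 0.00536), while Agpat4 rose by 0.51 (edgeR adjusted p = 0.0279) and Agpat1 by 0.40 (edgeR adjusted p = 0.0235). The calls on Agpat4 and Agpat1 were lost in the fits that left out DMSO replicate 1, DMSO replicate 2 or replicate 1 of SKI-II, and that on Agpat4 also in the fit that left out replicate 2 of SKI-II. Gpat2 had no count.

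In the list of uptake and activation, 14 of 21 genes were tested, 5 rose and 4 fell, with a median of 0.06, beside the same shares of 18.4% and 19.7% over all tested genes. Fabp3, the fatty acid binding protein of heart, fell from 160 ± 12.5 to 51.1 ± 19.99 normalized counts (SD, n = 3), by 1.65 on the log2 scale (edgeR adjusted p = 0.00176), the same direction as Fabp4 and Fabp5. Fabp7, the relative known from brain, went the other way, from 75.4 ± 26.5 to 158 ± 20.5 (log2 fold change 1.06, edgeR adjusted p = 0.0122), and was named after its values were seen. Lmf1, a chaperone needed for lipoprotein lipase to mature, rose by 1.15 (edgeR adjusted p = 0.000388) while Lpl fell. Of the fatty acid transport proteins, Slc27a4 gave a log2 fold change of 1.03 (edgeR adjusted p = 0.0162), although its groups overlapped, and Slc27a1 rose by 0.64 (edgeR adjusted p = 0.0128). The calls on Fabp7 and Slc27a4 were lost in the fits that left out replicate 2 of DMSO or of SKI-II, and that on Slc27a4 also in the fit that left out replicate 1 of SKI-II. Dbi, the acyl-CoA binding protein, fell by 1.07 (edgeR adjusted p = 0.000253), and Acsl3, an acyl-CoA synthetase of nascent droplets, fell by 1.06 (edgeR adjusted p = 0.000618). Slc27a2, Acsl6, Gpihbp1, Vldlr and Apoc2 had no count.

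Among 15 regulators, 12 were tested and 2 passed the test, with a median of -0.16, where 38.0% of all tested genes were called. Cebpb, a transcription factor of inflammation and fat cell formation, rose from 1386 ± 117 to 2999 ± 439 normalized counts (SD, n = 3), a log2 fold change of 1.11 (edgeR adjusted p = 0.000246). Ppargc1b, a coactivator of mitochondrial and lipid genes, fell from 456 ± 47.8 to 233 ± 16.98 (SD, n = 3), by 0.97 (edgeR adjusted p = 0.00103). Hif1a, the oxygen-sensing factor, gave a log2 fold change of -0.14 (edgeR adjusted p = 0.563) and Ppard, the relative of Pparg that these cells expressed at 1249 ± 208 in DMSO, -0.22 (edgeR adjusted p = 0.355). Rxrg and Ppargc1a had no count.

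**Figure D4:**
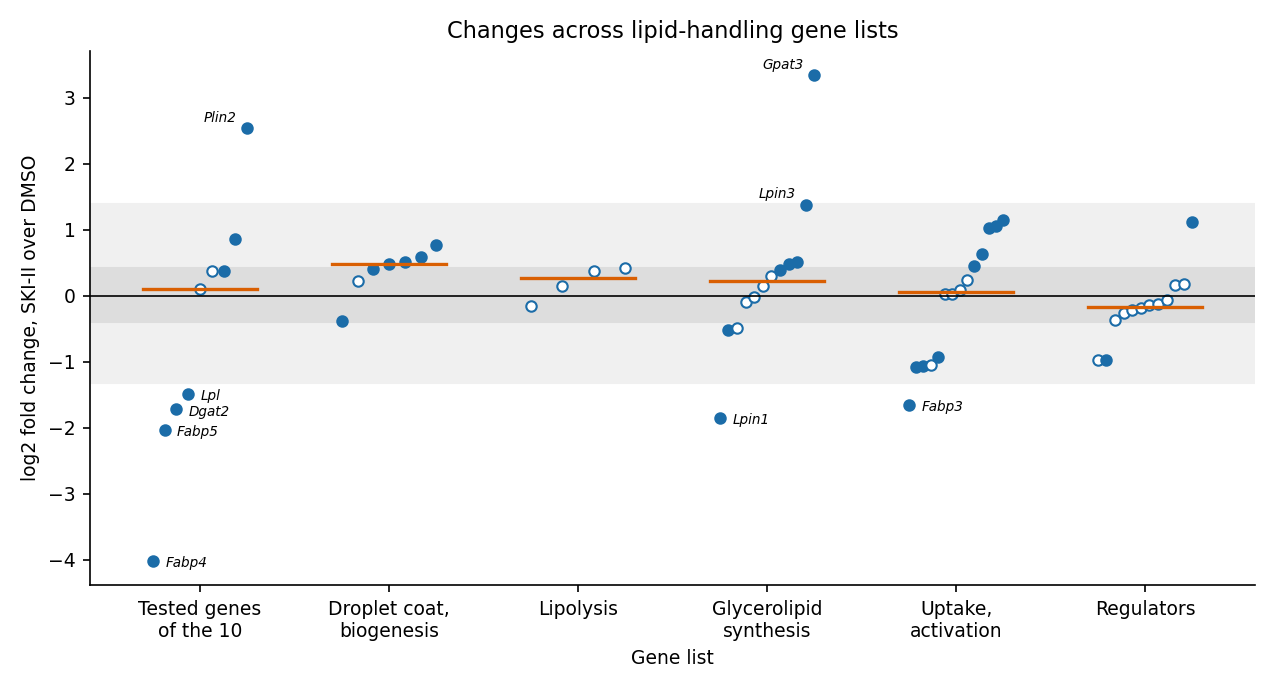
log2 fold change of SKI-II over DMSO (y axis) for each tested gene of the 10 and of 5 lists (x axis), with filled points at an edgeR adjusted p below 0.05, open points above it, orange lines at each median, and grey bands over the middle 50% and 90% of all tested genes. Plin2 and Gpat3 lie above the outer band and Fabp4, Fabp5, Dgat2, Lpl, Lpin1 and Fabp3 below it.

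**Figure D5:**
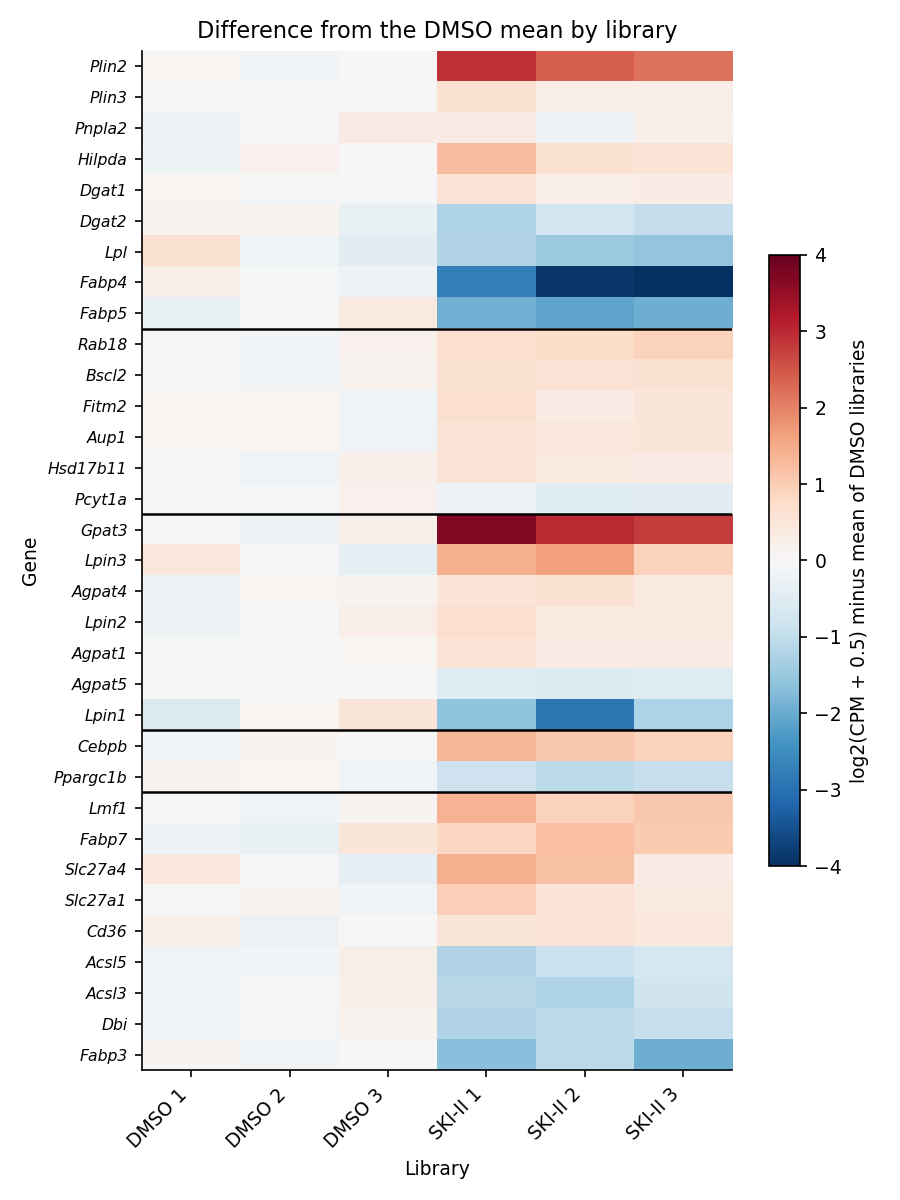
Difference of each library from the DMSO mean on the log2 scale of CPM (colour, from -4 to 4), with a small offset added to CPM that shrinks differences at low levels. The 9 tested genes are in the top block and the 24 called genes of the lists below, with 1 row per gene and 1 column per library. The 3 SKI-II columns share their colour within most rows, and the Fabp4 row is the darkest of the decreases.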

How the data were processed

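Poly(A)-selected RNA of 6 libraries was sequenced. The authors trimmed and aligned the reads, and the table they deposited that was used here holds raw, unnormalized counts of reads per Ensembl gene. Normalized expression values were not used here. The submitters' processing notes name Trimmomatic 0.36, STAR 2.5.2b, featureCounts of Subread 1.5.2 and DESeq2. The genome build, annotation and strandedness were not given in the sources used here. A pair of genes on opposite strands could therefore share reads, though no exon of another annotated gene overlapped those of the 10 genes in GENCODE M21 (GRCm38), which named 49056 of 49315 rows and gave all positions. Unnamed rows held 0.0102% of the counts.

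The depth of 12495957 to 20050677 counts per library leaves genes such as Dgat2 and Pparg with large counting error. Groups were taken from the treatment labels. Between libraries of a group, chi-square divided by its degrees of freedom was 15.4 to 58.1, above sampling noise. Counts were tested in edgeR 4.0.16 (R 4.3.3) by its quasi-likelihood F test with TMM scaling and its default filter by group (minimum count 10, minimum total 15). The 12274 genes that passed held 99.9% of all counts, and p-values were adjusted over them (Benjamini-Hochberg). The threshold for a call was an adjusted p of 0.05, with a 2-fold change added where stated. Fold changes were not shrunk. The mean scaled size was 16042438. Ratios between genes were compared by exact permutation over libraries. Near-identical copies were found with BLAST 2.17.0 at 95% identity over at least 100 bp, and figures were drawn with matplotlib 3.10.9. The fit was tested on simulated data.

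The alternatives were DESeq2 1.42.0, limma-voom (limma 3.58.1), RLE scaling, library size alone, no filter, a filter of 10 counts for each library, fits without 1 library and the replicate number as a block. From each list, the text names up to 4 called genes of largest change, the largest opposed change, genes with no count, the markers, and the 3 profiles nearest to Fabp4. Other genes of the lists with values in the text (Fabp7, Agpat1, Agpat4, Slc27a1, Slc27a4, Lipe, Abhd5, Lipa, Abhd6, Hif1a, Ppard, Bnip3, Pdk1, Car9, Ankrd37 and Egln3) and the gene copies were chosen after their values were seen. Some items that the rule names are not reported here. The 10 genes and the lists were chosen with earlier results of these data known.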

Additional observations from a re-analysis of the deposited data

How the results depend on the processing

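Changes of Plin2, Lpl, Fabp4 and Fabp5 kept their direction and their call under all alternatives run. Plin3 lost its call with limma-voom (0.37, adjusted p = 0.0503) and with no filter on low counts (0.38, adjusted p = 0.0638, edgeR), and ranged from 0.25 to 0.45 with 1 library left out. Leaving out 1 library gave log2 fold changes of -0.02 to 0.28 for Pnpla2, reversed to -0.025 without DMSO replicate 1 and to -0.014 without the first SKI-II replicate, of 0.59 to 1.00 for Hilpda and of -1.99 to -1.50 for Dgat2. The genes of the 10 called higher then numbered 1 to 3 and those called lower 3 to 4, and the genes of the 5 lists called higher 8 to 17. Dgat2 was not tested at 10 counts in every library. With the replicate number as a block, Dgat1 was called at 0.38 (edgeR adjusted p = 0.0447), and calls over all tested genes went from 2255 to 2765 higher and from 2413 to 2819 lower. Deviations of same-numbered libraries correlated at 0.246, 0.00994 and 0.458, and those of differently numbered libraries at -0.462 to 0.296. Replicate 2 fell short of 0.1, so the numbers were not taken to pair the libraries. No other call on the 10 genes changed with the block, but Lipa and Abhd6 of the lipolysis list were then called, as was Lipa with library size alone. Fewer libraries also leave fewer degrees of freedom, and the cause of each lost call was not tested. With 3 libraries per group, the smallest change called among the 10 genes was 1.30-fold, that of Plin3, and exact tests of ratios cannot give a p below 0.1.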

Other observations

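A list of 9 genes known to respond to low oxygen, the condition Hilpda is named for, had 8 tested members, of which 4 were called higher and 0 lower by edgeR, where 18.4% and 19.7% of all tested genes were called. The median log2 fold change was 1.00 against 0.0038 over all tested genes. Ndrg1, a stress-responsive gene, had 3029, 4081 and 5983 normalized counts in DMSO and 19269, 14728 and 11961 with SKI-II (log2 fold change 1.81, edgeR adjusted p = 0.00055). Slc2a1, the glucose transporter GLUT1, rose by 1.76 (edgeR adjusted p = 0.000431) and Vegfa, the vascular growth factor, by 0.88 (edgeR adjusted p = 0.00423). Adm, adrenomedullin, had 34.0, 5.05 and 7.92 normalized counts in DMSO and 209, 46.8 and 25.3 with SKI-II. Its groups overlapped, and its log2 fold change of 2.51 (edgeR adjusted p = 0.0404) became 1.15 without SKI-II replicate 1 and 3.76 without DMSO replicate 1. The call on Adm was lost in 5 of 12 alternatives, with DESeq2, with limma-voom, and in the fits that left out replicate 2 or 3 of DMSO or replicate 1 of SKI-II. Members that were not called include Bnip3 at 1.12, Pdk1 at -0.39, Car9 at -0.15 and Ankrd37 at -1.44. Egln3, the member too low to test, had 10, 8 and 5 raw counts in DMSO and 3, 2 and 3 with SKI-II.

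The genes whose profile over the 6 libraries lay nearest to that of Fabp4 were Pclaf (distance 1.13, log2 fold change -3.10), Hgsnat (1.23 and -2.90) and Pif1 (1.26 and -2.85). The distance was Euclidean, on centred log2 CPM with a small offset added to CPM. Such an offset shrinks differences at low levels, such as that of Fabp4 with SKI-II. Pclaf, a partner of the replication clamp PCNA, had 2153, 1450 and 1869 raw counts in DMSO and 214, 285 and 201 with SKI-II.

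Fabp5 and Fabp4 lie 187 kb apart on chromosome 3, a region looked at after their values were seen. Of the 6 genes of the table between them, 4 had no count in any library, including Pmp2 and Fabp9, which belong to the same family. Gm9833, the gene between them with the most counts, had 153, 92 and 89 raw counts in DMSO and 78, 136 and 132 with SKI-II, and its groups overlapped.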
